A study of Arabidopsis thaliana with 4 samples.

Results

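The morning clock genes of Arabidopsis examined here were 10 of the 37336 genes of the table: *LHY* and *CCA1*, the REVEILLE genes *RVE1*, *RVE2*, *RVE4*, *RVE6*, *RVE7* and *RVE8*, and the coactivator genes *LNK1* and *LNK2*. They were picked by gene identifier as a family, with earlier results of the same comparison known, so that their differences between genotypes are given as a description. Where a member is said to be called or not, this is its place in a fit over all genes and not a test of the family. Transcripts were measured by polyA RNA-seq in whole 6-day-old seedlings of the *s2lb-2* line (2 libraries) and of wild-type Col-*0* (2 libraries), grown in vitro without sugar under 16 h of light at 23 °C and 8 h of dark at 19 °C, and harvested at 8 ZT, that is 8 h after lights on. The *s2lb-2* line carries an insertion in *S2Lb*, which encodes a Swd2-like partner of histone H3 Lys-4 trimethylation complexes. Its mutation arose in a Nossen background and was brought into Col-*0* by successive backcrosses, so that 1 mutant line stands for the genotype. The labels of both *s2lb-2* samples also carry the genotype entry pSDG2:myc-SDG2, a tagged line. The assignment followed their titles, and the mutated gene *S2Lb* (AT5G66240) was low in these libraries, with 80.8 and 67.2 normalized counts in *s2lb-2*, against 1337 and 1613 in wild type (log2 fold change of -4.30, and a limma adjusted p of 0.00620). Its paralog *S2La* had 228 and 250 normalized counts in *s2lb-2* and 224 and 272 in wild type. Each library was made from a pool of seedlings.

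Between 34325097 and 39114300 reads per library fell on genes. The values are counts divided by 1 size factor per library, called normalized counts here, and differences are log2 fold changes of *s2lb-2* over wild type from limma on log2(normalized count + 1). A gene was called when its Benjamini-Hochberg adjusted p over all 23723 tested genes was under 0.01. Levels per exon length and library size are given as TPM. The summed TPM of the shoot markers *RBCS1A*, *LHCB1.1* and *CAB3* ranged from 42967 to 43229 in *s2lb-2* and from 48967 to 49338 in wild type, and those of the root markers *PIN2*, *SHR* and *NRT2.1* from 30.2 to 34.1 in *s2lb-2* and from 55.1 to 84.7 in wild type. The summed TPM of 3 seed storage genes was 3.39 and 0.796 in libraries 1 and 2 of *s2lb-2*, and 8.28 and 1.15 in those of wild type. Library 1 was thus the higher one in both genotypes. The summed TPM of 3 flower genes was between 0.173 and 0.586 over the 4 libraries, with *AP1* at 0 reads in all. At the adjusted threshold limma called 0 of the 3 genes of each list, while DESeq2 called *NRT2.1* and *CAB3*, both lower in *s2lb-2*, and limma with the replicate number as a block called *NRT2.1*. The root sums stood apart through *NRT2.1* (6.91 and 6.60 TPM in *s2lb-2*, against 58.1 and 34.3 TPM in wild type). Without it, a sum chosen after the values were seen, *PIN2* and *SHR* gave 23.3 and 27.5 TPM in *s2lb-2* and 26.6 and 20.8 TPM in wild type, which overlapped. The part of these markers in the differences below was not tested. In these bulk samples, a lower share of the expressing cells and less transcript per cell cannot be told apart.

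The plant clock is a loop of transcription factors whose transcripts peak at set times of day. LHY and CCA1 are MYB-type repressors that accumulate around dawn and hold down genes expressed later in the day, such as *TOC1* and the other PRR genes, whose products repress *LHY* and *CCA1* in turn. RVE4, RVE6 and RVE8 carry a related MYB domain but activate afternoon and evening genes, which they do together with the LNK coactivators. RVE1, RVE2 and RVE7 belong to the remaining branch of the family and act mainly in clock outputs. At 8 ZT under long days, the transcripts of *LHY* and *CCA1* are past their morning peak and on the low side of their daily course. All libraries were taken at this time of day. Whether a difference between genotypes in any clock gene lies in the level of its transcript or in its timing was not tested.

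Among the 10 genes, *LHY* stood out in *s2lb-2* seedlings with 3.06 times its wild-type level, followed by *RVE8* with 2.04 times and *CCA1* with 1.59 times. *RVE7* was at 0.471 times its wild-type level, and the 6 others lay between 0.797 and 1.19 times. All 10 passed the filter on low values. *LHY* was the only member among the 29 called genes, which are 0.122% of the genes tested, with 0.0632% called higher and 0.059% called lower in *s2lb-2*. DESeq2 on the recovered reads placed *LHY*, *RVE8* and *RVE7* among its 704 called genes, or 3.12% of those with an adjusted p (1.33% higher and 1.79% lower). With a limma threshold of 0.05, *LHY* was again the only member, among 1.6% of the genes (0.674% higher and 0.923% lower). With the replicate number as a block, limma called 4 members, with *LHY*, *CCA1* and *RVE8* higher and *RVE7* lower. It then called 2.79% of all genes (1.18% higher and 1.61% lower). A log2 fold change of at least 1 either way was found for 3 members and for 8.99% of all genes. As the members were chosen with this comparison known, nothing is read from these counts. The genotypes were apart, with no overlap of their libraries, for 6 of the 10 genes (4 higher and 2 lower), and for 49.5% of all tested genes (24.8% higher and 24.7% lower). The median log2 fold change was -0.02 over the 10 genes and -0.0022 over all genes tested, so that the family did not share a direction.

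**Figure D1:**
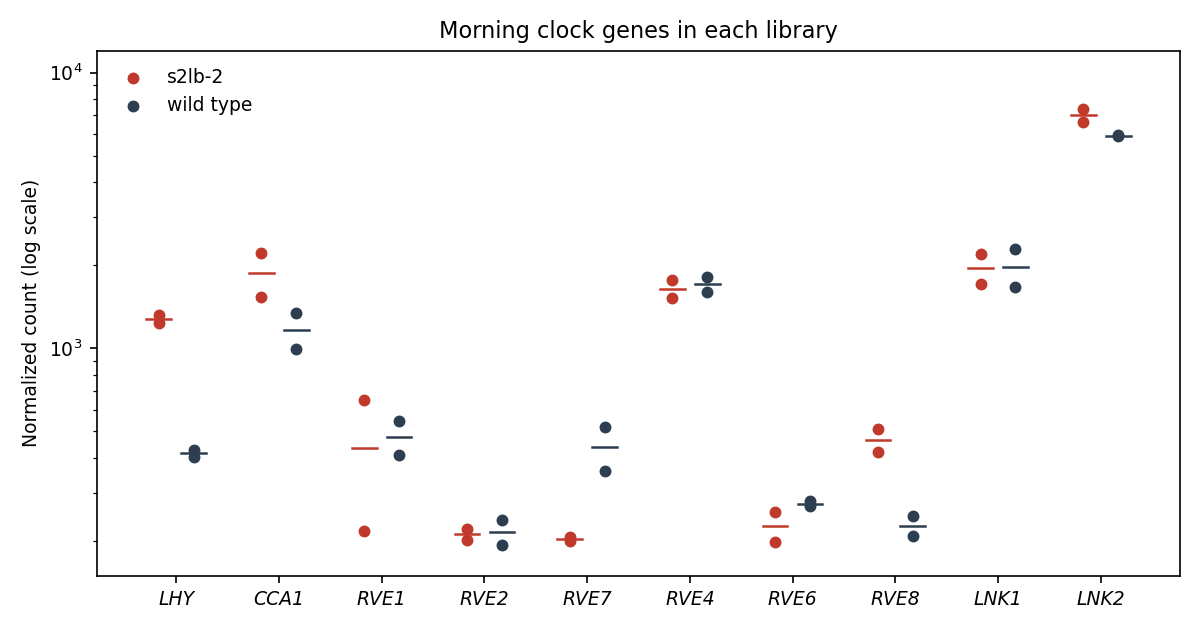
Normalized counts (log axis) of the 10 morning clock genes in each library, with *s2lb-2* left of wild type for each gene. Points are libraries and short lines are means of 2. The *LHY* values were 1232 and 1317 in *s2lb-2* and 428 and 404 in wild type, the widest separation of the 10.

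*LHY* (AT1G01060) is a minus-strand gene of chromosome 1, at positions 33365 to 37871 of TAIR10.1. It had 1232 and 1317 normalized counts in *s2lb-2*, against 428 and 404 in wild type. The replicates of a genotype were close to each other and the genotypes far apart. The means were 1274 ± 59.7 in *s2lb-2* and 416 ± 17.1 in wild type (SD, n = 2 each), and the log2 fold change was 1.61 (standard error 0.102). Without any 1 of the 4 libraries it lay between 1.56 and 1.66, but limma then called 0 genes in all, *LHY* included, with 2533 to 3468 genes at an unadjusted p under 0.05. In the fit with all 4 libraries, *LHY* was among the 15 called genes with higher values in *s2lb-2*, where it took rank 11 by size. Of the 13326 genes with a mean normalized count from 200 to 7000, 22, with *LHY* itself counted, had a log2 fold change at least as large as that of *LHY*. The 5th and 95th percentiles of the 13326 genes were -0.53 and 0.41.

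*CCA1* (AT2G46830), the closest relative of *LHY*, is found on the plus strand of chromosome 2 at 19245591 to 19248915. Its normalized counts were 2220 and 1535 in *s2lb-2* and 1343 and 998 in wild type. Each *s2lb-2* library lay above each wild-type library, but the lower *s2lb-2* value came close to the higher wild-type value. The log2 fold change was 0.67 (standard error 0.221) and lay between 0.41 and 0.94 with 1 library left out, and *CCA1* was called by neither limma nor DESeq2 but by limma with the replicate number as a block. The summed TPM of *LHY* and *CCA1* was 49.9 and 43.5 in *s2lb-2*, against 26.5 and 21.1 in wild type. *LHY* made up 30.6% and 40.6% of this sum in *s2lb-2* and 20.2% and 24.4% in wild type. The shares, which do not depend on the scaling of libraries, did not overlap.

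*LHY* is the MYB gene called by limma, *CCA1* its closest relative, and *RVE7* the member with the lowest log2 fold change. The stretches of 250 bases upstream of their annotated starts are shown for this reason. They were read from TAIR10.1, 5′ to 3′ on the strand of the gene, at chr1:37872-38121 (minus), chr2:19245341-19245590 (plus) and chr1:6308244-6308493 (minus). Capitals mark matches to 4 motifs searched on both strands.
LHY: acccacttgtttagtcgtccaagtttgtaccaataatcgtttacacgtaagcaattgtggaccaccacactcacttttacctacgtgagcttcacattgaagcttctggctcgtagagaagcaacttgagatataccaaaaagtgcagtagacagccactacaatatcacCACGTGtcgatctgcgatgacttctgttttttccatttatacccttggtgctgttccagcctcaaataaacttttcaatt
CCA1: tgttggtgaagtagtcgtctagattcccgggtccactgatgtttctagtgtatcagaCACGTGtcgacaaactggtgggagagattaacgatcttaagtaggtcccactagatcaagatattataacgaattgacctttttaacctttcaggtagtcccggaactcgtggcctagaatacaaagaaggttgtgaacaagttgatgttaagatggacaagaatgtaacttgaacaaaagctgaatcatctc
RVE7: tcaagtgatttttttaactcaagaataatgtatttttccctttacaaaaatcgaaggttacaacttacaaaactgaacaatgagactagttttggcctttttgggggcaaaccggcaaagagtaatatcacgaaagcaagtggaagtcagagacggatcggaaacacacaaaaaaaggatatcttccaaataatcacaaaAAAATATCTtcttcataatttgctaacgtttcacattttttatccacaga
The motifs were the evening element AAAATATCT, the CCA1-binding site AAAAATCT or AACAATCT, the G-box CACGTG, and the LUX-binding site GATACG or GATTCG, and none of them contains another. The G-box, a site bound by light-signalling factors, was found from 80 to 75 bases upstream of *LHY* and from 193 to 188 bases upstream of *CCA1*. It also occurred upstream of *RVE1* and *RVE2*, that is in 4 of the 10 windows, and in 6.49% of the 27438 windows of protein-coding genes. Other clock genes, among them *RVE3*, *RVE5*, *LNK3*, *PRR7* and *PRR9*, had a match to the G-box too, so it was not particular to the members. The evening element, bound by proteins of the LHY and RVE families, was found 50 to 42 bases upstream of *RVE7* and in 2.36% of all windows. *TOC1*, *PRR5* and *LUX* were among the other clock genes with a match to it. Matches to the CCA1-binding site stood upstream of *RVE2* and *RVE6* (8.39% of all windows) and those to the LUX-binding site upstream of *RVE4* and *LNK2* (12.1%). A match is a run of letters and not a measured site, and *RVE8* and *LNK1* had 0 matches in this window.

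*RVE8* (AT3G09600), an activator of afternoon and evening genes, is found on the plus strand of chromosome 3 at 2946239 to 2949017. It had 509 and 420 normalized counts in *s2lb-2*, against 247 and 208 in wild type. Both *s2lb-2* values were well above both wild-type values, with a log2 fold change of 1.03 (standard error 0.165) that lay between 0.89 and 1.16 with 1 library left out. *RVE8* was called by DESeq2 and not by limma. Its relatives *RVE4* and *RVE6* did not show this rise. *RVE3*, a further relative described below, was also higher in *s2lb-2*, at a low level (log2 fold change of 1.46). It was called by neither limma nor DESeq2. *RVE5*, also described below, overlapped between genotypes. *RVE4* (AT5G02840, chromosome 5, 648648 to 651979, plus strand) had 1777 and 1517 normalized counts in *s2lb-2* and 1601 and 1814 in wild type, and the genotypes overlapped (log2 fold change of -0.05, standard error 0.118). *RVE6* (AT5G52660, chromosome 5, 21359001 to 21362273, minus strand) had 256 and 199 in *s2lb-2* and 279 and 268 in wild type (log2 fold change of -0.28, standard error 0.175), where the higher *s2lb-2* value was just under the lower wild-type value.

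The summed TPM of *RVE4*, *RVE6* and *RVE8* was 51.6 and 46.7 in *s2lb-2* and 44.3 and 48.5 in wild type, so that the total of this activator group overlapped between genotypes. *RVE8* supplied 17.9% and 17.6% of it in *s2lb-2*, against 10.2% and 7.98% in wild type. *RVE4* remained the main transcript of the group, with 69.4% and 70.7% in *s2lb-2* and 73.5% and 77.5% in wild type.

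*RVE7* (AT1G18330, also named *EPR1*) is found on the minus strand of chromosome 1 at 6305814 to 6308243 and was the only member with a clearly lower level in *s2lb-2*. It had 207 and 200 normalized counts in *s2lb-2*, against 519 and 360 in wild type. The *s2lb-2* libraries were nearly equal while the wild-type libraries differed. The log2 fold change was -1.09 (standard error 0.202) and lay between -1.35 and -0.82 with 1 library left out. *RVE7* was called by DESeq2 and not by limma. Of the 1781 words of 50 bases in its exons, the read length used, 58.8% occur elsewhere in the genome, 863 of them in AT3G10113, an *RVE7*-like gene on chromosome 3, and 185 in the adjoining gene AT3G10110. The *RVE7*-like gene, 88.2% of whose own words are shared, had 0 reads in all 4 libraries. Reads from shared words cannot be assigned to 1 gene, and STAR gene counts leave out reads that map equally well to both copies. How much this lowered the counts of the copies was not tested. The other 9 genes had from 0% to 0.272% of such words.

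The 2 relatives of *RVE7* overlapped between genotypes. *RVE1* (AT5G17300, chromosome 5, 5690225 to 5692992, minus strand), which acts in auxin output of the clock and in seed dormancy, had 652 and 217 normalized counts in *s2lb-2* and 544 and 411 in wild type. The *s2lb-2* libraries were its highest and its lowest value, and the log2 fold change of -0.33 (standard error 0.502) lay between -1.12 and 0.46 when a library was left out. *RVE2* (AT5G37260, also named *CIR1*, chromosome 5, 14751344 to 14753088, minus strand) had 221 and 203 in *s2lb-2* and 239 and 193 in wild type (log2 fold change of -0.02, standard error 0.174). The share of *RVE7* in the summed TPM of the 3 genes was 15.7% and 23.9% in *s2lb-2* and 33.3% and 30.7% in wild type. These shares use the full exon length of *RVE7*, which understates its part if reads from shared words were left out. Of the genes reported as RVE1 targets, *PORA*, *YUC8* and *GA3OX2*, limma called 0 of 3 at the adjusted threshold. At an unadjusted p under 0.05, which 17.4% of all tested genes had, it gave 1, and DESeq2 called 0. This gene, named after its values were seen, was *PORA*, an enzyme gene of chlorophyll synthesis, with 35.5 and 25.9 normalized counts in *s2lb-2* and 79.8 and 93.8 in wild type (log2 fold change of -1.48, adjusted p = 0.0850 in limma and 0.0248 in DESeq2).

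The coactivator genes were the most abundant of the family with *RVE4*. *LNK2* (AT3G54500, chromosome 3, 20175370 to 20179070, minus strand) had 7391 and 6632 normalized counts in *s2lb-2*, against 5924 and 5866 in wild type. The values did not overlap, but the difference was small (log2 fold change of 0.25, standard error 0.0848) and was called by neither limma nor DESeq2. *LNK1* (AT5G64170, chromosome 5, 25672466 to 25676823, minus strand) had 2207 and 1718 in *s2lb-2* and 2290 and 1672 in wild type, and its log2 fold change of -0.0071 (standard error 0.190) was the nearest to 0 of the 10. *LNK1* is also the member nearest to the mutated gene, 0.789 Mb from *S2Lb* on chromosome 5, where the next nearest, *RVE6*, is 5.10 Mb away. Opposite-strand genes overlap *LNK1*, *LNK2* and *RVE1* in the annotation. The one over *LNK1*, AT5G64160, overlaps it by 245 bases and had from 293 to 359 normalized counts over the 4 libraries, whereas those over *LNK2* and *RVE1* had at most 10.2. The strand column used for counting is not given in the sources used here, so reads in these overlaps may be shared.

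**Figure D2:**
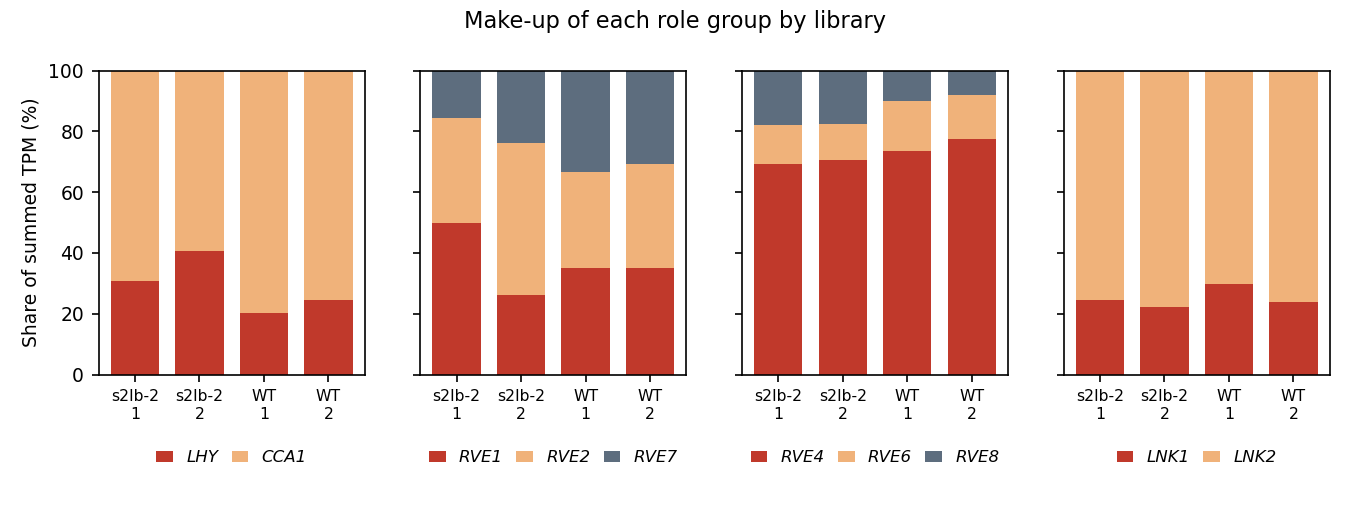
Share of each gene in the summed TPM of its role group, for each library, with *s2lb-2* left of wild type (WT). *LHY* and *RVE8* took larger shares in each *s2lb-2* library than in each wild-type library and *RVE7* a smaller one, while the shares of *LNK1* and *LNK2* overlapped. The shares in the group of *RVE7* use its full exon length, which may understate its part.

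Levels of different genes were compared as TPM, that is per exon length. In wild type the order was *LNK2* (87.1 ± 0.518 TPM), *RVE4* (35.1 ± 3.55), *LNK1* (32.1 ± 6.67), *CCA1* (18.6 ± 3.64), *RVE1* (10.2 ± 1.89), *RVE2* (9.53 ± 1.31), *RVE7* (9.36 ± 2.26), *RVE6* (7.14 ± 0.124), *LHY* (5.26 ± 0.148) and *RVE8* (4.19 ± 0.449; SD, n = 2 each). In this order *RVE4* and *LNK1* overlapped, as did *RVE1* with *RVE2* and *RVE2* with *RVE7*, and the other neighbours were apart. In *s2lb-2*, *LHY* had 16.5 ± 1.66 TPM and took rank 5 in place of rank 9, *RVE8* had 8.71 ± 0.717 TPM and took rank 8 in place of rank 10, and *RVE7* had 4.42 ± 0.127 TPM and took rank 10 in place of rank 7 (SD, n = 2 each). *CCA1* kept rank 4 with 30.2 ± 6.22 TPM, where it overlapped *LNK1*. In *s2lb-2*, *RVE4* overlapped *LNK1* too, and *RVE1* (13.7 and 4.93 TPM) overlapped *RVE2*, *RVE8* and *RVE6*. The order of *RVE8* and *RVE1* there is therefore not settled. The level of *RVE7* is understated by its full exon length, if reads that map equally well to both copies were left out, as STAR gene counts do. On the 733 words found only there, an alternative added after the values were seen, it averaged 10.8 TPM in *s2lb-2* and 22.7 TPM in wild type. These means are above those of *RVE2* in *s2lb-2* (9.52 TPM) and of *CCA1* in wild type (18.6 TPM). The ranks given for *RVE7* therefore hold for its full exon length only.

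**Figure D3:**
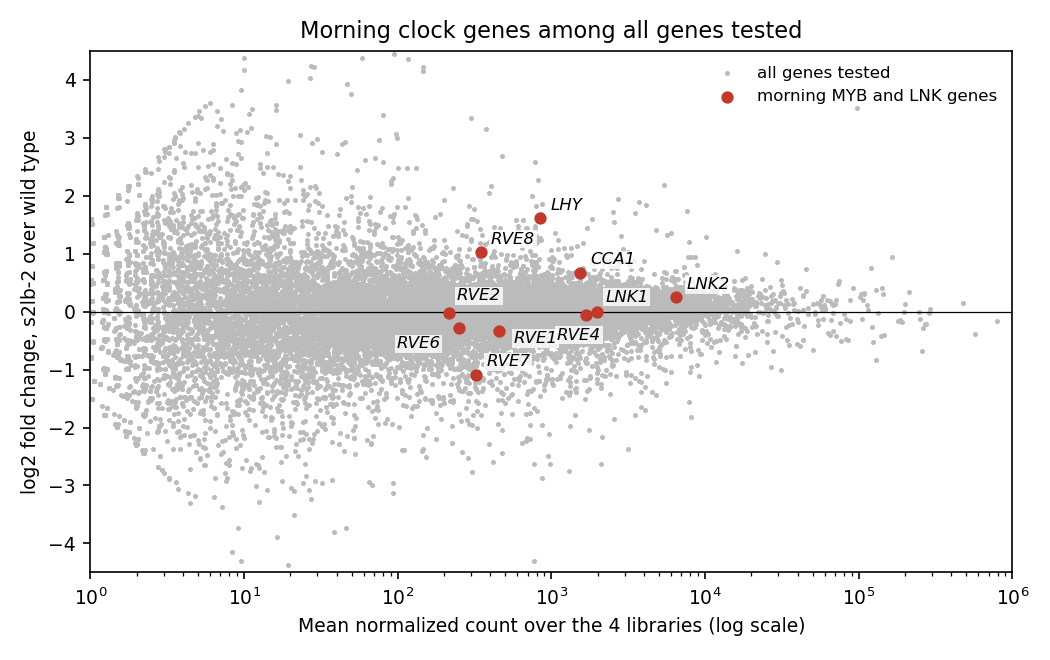
Log2 fold change of *s2lb-2* over wild type against the mean normalized count (log axis) for all 23723 genes tested, with the 10 morning clock genes in red. *LHY* (1.61), *RVE8* (1.03) and *RVE7* (-1.09) lie outside the 5th to 95th percentile range (-0.53 to 0.41) of the 13326 genes with a mean from 200 to 7000. The members were chosen with this comparison known, so this is a description and not a test. The plotted range leaves out 16 genes.

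The genes of the clock that act beside or after these 10 were looked at in 6 lists with 40 genes in all, of which 39 were tested. Limma called 0 of them at the adjusted threshold, and 14 had an unadjusted p under 0.05, of which 13 were lower in *s2lb-2*. Over all tested genes, 17.4% had such a p and 8.9% had it with lower values in *s2lb-2*. DESeq2 called 5, all lower in *s2lb-2*, where 1.79% of all genes with an adjusted p were called in that direction, whereas edgeR (quasi-likelihood) called 0 and so did limma-voom. The median log2 fold change over the 39 genes was -0.41.

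Among the relatives of the members, *RVE3* was nearest to *LHY* in its difference, with 82.7 and 129 normalized counts in *s2lb-2* against 46.2 and 29.7 in wild type (log2 fold change of 1.46, standard error 0.348, adjusted p = 0.125 by limma). The values did not overlap, at a low level. *RVE5* had 487 and 412 in *s2lb-2* and 448 and 322 in wild type (adjusted p = 0.588 by limma). *LNK3* had 862 and 570 in *s2lb-2* and 597 and 395 in wild type (adjusted p = 0.390), and *LNK4* had 1260 and 1187 in *s2lb-2* and 1191 and 1451 in wild type (adjusted p = 0.713, each by limma). Limma and DESeq2 called 0 of these relatives, and 1 of the 4 tested, *RVE3*, had an unadjusted p under 0.05 by limma, beside 17.4% of all tested genes.

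All 5 PRR genes and all 8 genes of the evening complex and the GI-ZTL group had a log2 fold change under 0. Over the 13 genes the median was -0.52 and the range -1.20 to -0.10, so that some lay near 0. Of all 23723 tested genes, 11929 were at or below 0. In 11 of the 13, each *s2lb-2* value lay below each wild-type value, which held for 24.7% of all tested genes. *PRR5*, which encodes a repressor of *LHY* and *CCA1* and a target of RVE8, had 557 and 414 normalized counts in *s2lb-2*, against 1286 and 941 in wild type (log2 fold change of -1.20, adjusted p = 0.0723 in limma and 3.33e-05 in DESeq2). *PRR7*, of the same repressor group, had 4590 and 4317 in *s2lb-2* and 6031 and 6530 in wild type (log2 fold change of -0.50, adjusted p = 0.0647 in limma and 0.00218 in DESeq2). *GI*, a scaffold of the evening degradation machinery, had 2837 and 2238 in *s2lb-2* and 4425 and 3658 in wild type (log2 fold change of -0.67, adjusted p = 0.113 in limma and 0.00622 in DESeq2). These 3 genes were the ones that DESeq2 called among the 13.

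*TOC1*, *ELF4* and *LUX*, which encode parts of the evening repressors, had log2 fold changes of -0.34, -0.65 and -0.52 (adjusted p = 0.350, 0.187 and 0.208 by limma). In each of the 3, the genotypes did not overlap. *PRR9*, which peaks early in the day, had 360 and 223 normalized counts in *s2lb-2* and 564 and 184 in wild type and overlapped (adjusted p = 0.896 by limma). The clock-associated repressor *CHE*, which binds the *CCA1* promoter, had 1822 and 1701 in *s2lb-2* and 2433 and 2466 in wild type (log2 fold change of -0.48, adjusted p = 0.0705 in limma and 0.00707 in DESeq2). Among 15 output genes, *GRP7*, an RNA-binding protein gene under clock control, had 12507 and 12624 in *s2lb-2* and 19314 and 18703 in wild type (log2 fold change of -0.60, adjusted p = 0.0333 in limma and 2.23e-06 in DESeq2).

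**Figure D4:**
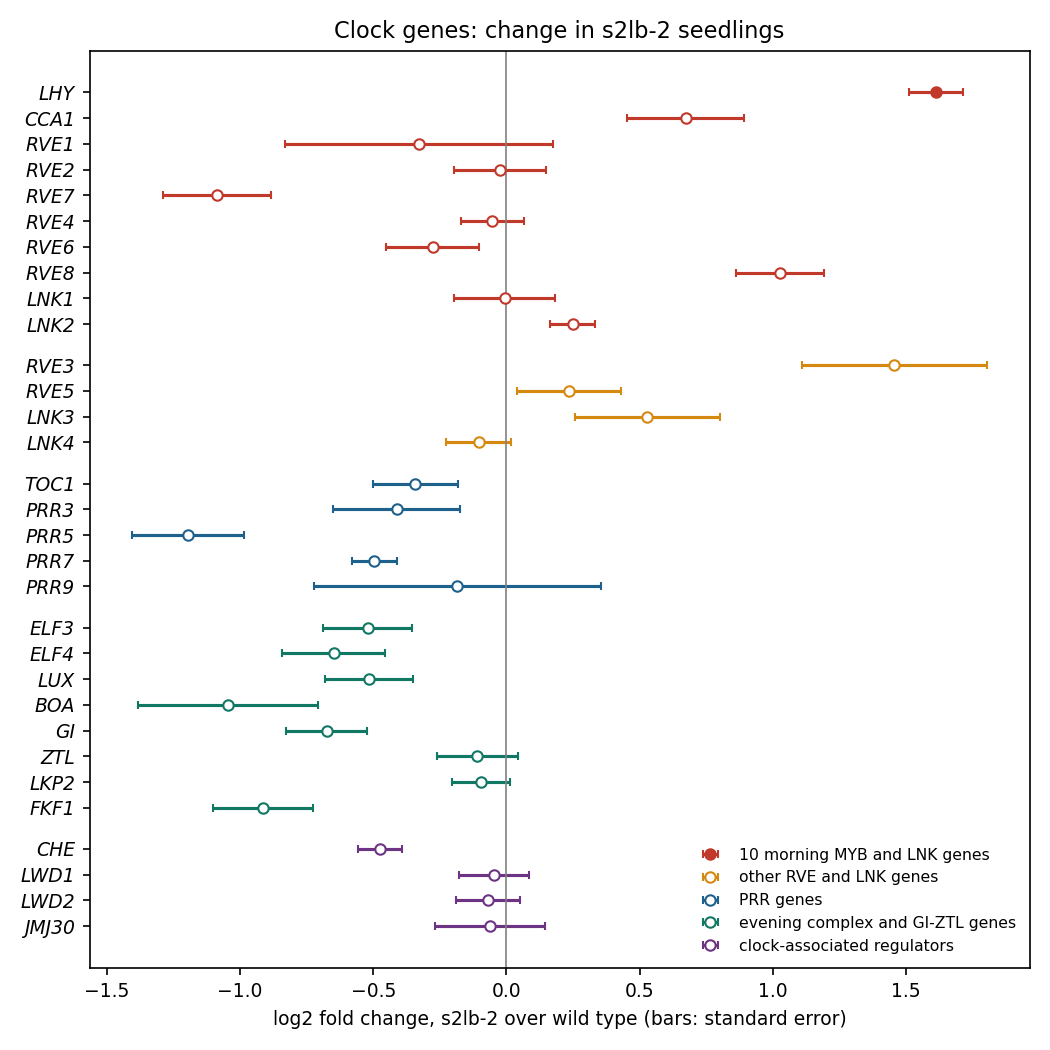
Log2 fold changes of *s2lb-2* over wild type with standard errors for the 10 morning clock genes and 4 of the 6 lists of other clock genes. The filled point is *LHY* (1.61), the gene called by limma, and open points were not called. All 13 genes of the PRR list and of the evening complex and GI-ZTL list lie left of 0, where 11929 of all 23723 tested genes were at or below 0.

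The 5 genes whose profile over the 4 libraries was most like that of *LHY* were *CHI* (AT2G43570), AT3G07720, *GSTL1* (AT5G02780), *LDOX* (AT4G22880) and *CYP72A8* (AT3G14620), with root mean squared differences of centred log2 values from 0.0495 to 0.109 among 16262 genes with a mean of at least 100. No member of the clock lists was among them. Such a profile holds little more than the difference between genotypes, as 36 genes lay within 0.219, and 1086 genes had a Pearson's r of at least 0.95 with *LHY* over the same 4 libraries.

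**Figure D5:**
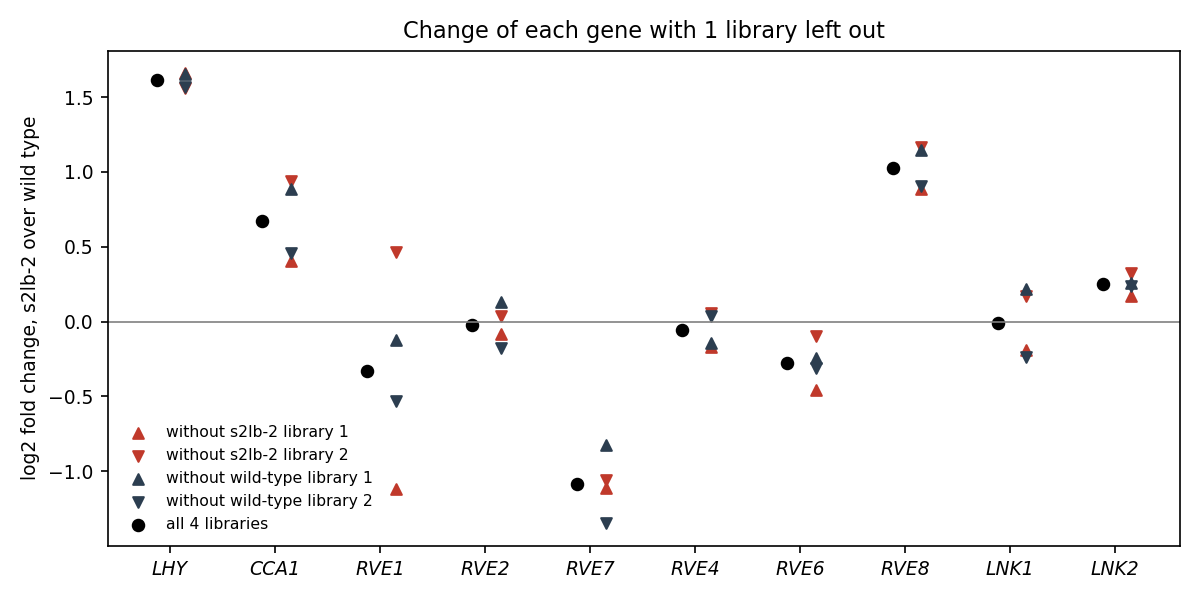
Log2 fold change of *s2lb-2* over wild type for each gene from all 4 libraries (black) and with 1 library left out (triangles). The value of *LHY* lay between 1.56 and 1.66, and that of *RVE1* spanned -1.12 to 0.46 depending on the library left out. These ranges restate the spread of the 4 values and show no stability.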

How the data were processed

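The authors trimmed the 50-bp single reads with trimmomatic, mapped them on TAIR10 with STAR 2.5.4b, counted them per Araport11 gene and divided the counts by DESeq2 size factors. The deposited signal is this normalized count. The authors' own comparison (a second table with mean signal, log2 fold change, test score and p-values) was not used, and 0 other columns of values per sample were present. All values were whole multiples of 1 step per library (100% within 1e-06), which gave back the reads.

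The design named edgeR for raw counts and limma for normalized values, so limma 3.58.1 (R 4.3.3, lmFit and eBayes with trend) was fitted on log2(normalized count + 1) with genotype as its only term, for genes with a mean of at least 1. Tests of the recovered reads with limma-voom, edgeR 4.0.16 (quasi-likelihood) and DESeq2 1.42.0 were alternatives, beside other scalings, filters, pseudocounts, a replicate block and fits without each library. The fits were tested on simulated data with the same spread setting for all genes and no replicate effect. Such data cannot decide between the tools on the real libraries. TPM used exon lengths of the RefSeq annotation of TAIR10.1 (37051 genes matched), whose nuclear sequence has the coordinates of TAIR10.

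The members and lists were chosen with earlier results of these data known. Named were the 10 members, their relatives, listed genes called by limma or DESeq2, *TOC1*, *PRR5*, *PRR7*, *PRR9*, *ELF4*, *LUX*, *GI*, overlapping genes, the mutated gene and its paralog, and the 5 genes most like *LHY*. Each p-value sets a difference between genotypes against an estimate of the spread between these libraries. In limma, this estimate draws on other genes as well as on the gene itself (3.55 of 5.55 degrees of freedom come from other genes). With 2 libraries per genotype from different seed batches, the number of libraries limits precision.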

Additional observations from a re-analysis of the deposited data

How the results depend on the processing

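The log2 fold changes of the 10 genes moved by less than the spread between replicates under every tool, scaling, pseudocount and filter tried with all 4 libraries. Over the settings that keep all libraries, that of *LHY* lay between 1.60 and 1.62 and that of *RVE1*, the least stable, between -0.33 and -0.13. With 2 libraries per genotype, leaving 1 out shifts a mean by less than the SD whatever the data, so these fits show no stability. In them, *RVE1*, *RVE2*, *RVE4* and *LNK1*, none of them called, changed sign. Over all genes, limma called 29 genes, DESeq2 704, scaling by library totals 66 and a threshold of 0.05 gave 379, and among the 10 members DESeq2 called 3 and among the lists of other clock genes DESeq2 called 5 and a threshold of 0.05 gave 1 (*GRP7*). Without any 1 library, limma called 0 genes over all genes, 0 members and 0 listed genes, against 2533 to 3468 genes at an unadjusted p under 0.05 in each case. These fits take the spread of the single remaining library from the other genotype.

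With the replicate number as a block, limma called 663 genes, 4 of the 10 members (*LHY*, *CCA1*, *RVE7* and *RVE8*) and 3 of the listed genes (*PRR5*, *GI* and *GRP7*). The libraries that share a number deviated together only in part, with a correlation of 0.178 across the tested genes and of 0.407 across the 17913 genes with a mean above 50. Library 2 lay below library 1 in both genotypes for 8 of the 10 members and for 29.4% of all tested genes. The replicates came from different seed batches, but the sources do not say whether a number marks the same batch in both genotypes, so a pairing could not be settled. Of the 5 genes most like *LHY*, 0 were also among the 5 by Pearson correlation. The TPM of *RVE7* on words found only there averaged 10.8 in *s2lb-2* and 22.7 in wild type.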
